A study of Homo sapiens with 6 samples.

Results

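The genes described here are 37 imprinted genes outside the H19 and IGF2 pair, taken by symbol from a table of 59653 gene symbols. All 37 had a row in that table, and 31 had enough reads to be tested. Their mRNA was sequenced in PA1, an established human ovarian teratocarcinoma line labelled wildtype, in 2 groups of 3 libraries that differ in the transfected siRNA. One group received a negative control siRNA and the other SOX2 siRNA, for which the design names 2 molecules without saying whether they were pooled. Cells of both groups were transfected in adherent culture. After 24 h they were moved to poly-HEMA coated plates, which prevent attachment, and RNA was taken after 72 h more. In such bulk samples fewer cells of a type and less RNA per cell cannot be told apart. All libraries come from 1 cell line, and nothing says that the replicates came from separate cultures. The p-values therefore measure only the spread between these libraries.

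An imprinted gene is read mainly from the copy inherited from 1 parent, because the 2 copies differ in methylation marks set in the egg or the sperm. Such genes lie in domains that share a control region, and a long non-coding RNA of the domain often keeps its neighbours silent on 1 chromosome. Several of them encode regulators of fetal and placental growth, and their marks can be lost or altered in germ cell tumours and in cultured stem cells. The assignment of each gene to the maternal or the paternal copy used below is background knowledge. The deposited counts do not separate the 2 parental copies, so no statement on imprinting itself can be drawn from them.

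Total counts ranged from 25152313 to 32753184 per library, and 3 counts corresponded to 0.0909 to 0.120 CPM, the usual count scaled to library depth. SOX2, the targeted gene, averaged 255 ± 10.1 CPM with control siRNA and 52.5 ± 2.21 CPM with its own siRNA (SD, n = 3). Its log2 fold change was -2.28 (SE 0.0437; edgeR, Benjamini-Hochberg adjusted p = 5.97e-16). Of 10 markers of PA1 or pluripotent cells, POU5F1, LIN28A and SALL4 were abundant, while TDGF1 and ZFP42 had at most 3 counts in any library. After SOX2 siRNA 4 of these markers rose (LIN28A, LIN28B, DNMT3B and POU5F1) and PODXL, the most abundant in the controls, fell from 1316 to 671 CPM. Of 14 trophoblast markers, 10 had at most 3 counts in each library, with CGA at 0 and GCM1 at 0 or 1 count. The summed level of 8 fibroblast markers went from 398 to 451 CPM in the controls to 581 to 620 CPM after SOX2 siRNA. COL1A1, THY1 and PDGFRB rose, while FAP had 0 or 1 count and DCN at most 4. The sum of 10 neuronal markers, mostly MAP2, went from 174 to 187 CPM in the controls to 132 to 135 CPM after SOX2 siRNA, where MAP2 and SYT1 fell, TUBB3 rose and NEFM was at 0. No skeletal muscle marker (16.5 to 17.7 against 13.7 to 15.2 CPM summed) and no hepatocyte or yolk sac marker (1.94 to 5.27 against 1.27 to 4.41 CPM) was called, as was none of the trophoblast markers (2.32 to 2.77 against 2.55 to 3.28 CPM). Their part in the results on imprinted genes was not tested.

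After SOX2 siRNA, 15 of the 31 tested imprinted genes changed by edgeR's quasi-likelihood test at a Benjamini-Hochberg adjusted p under 0.05. Over all 17592 tested genes the called share was 28.2%. In the genes described here 8 rose, where 14.8% of all tested genes did, and 7 fell, where 13.4% did. The genes that rose were MEST, NAP1L5, BLCAP, NDN, TRAPPC9, PEG10, DLK1 and GNAS. The genes that fell were PLAGL1, HYMAI, SNHG14, PPP1R9A, GRB10, ZDBF2 and SNRPN. Most changes were small, and a log2 fold change of at least 0.5 in size was found only for MEST, PLAGL1, HYMAI and SNHG14 among the called genes, where 8.29% of all tested genes reached it. The median log2 fold change was 0.041 over the 31 genes and -0.00085 over all tested genes. At an average log2 CPM of 4 or more, 13 of 18 imprinted genes were called, beside 36.6% of all tested genes at that level.

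Neither parental class moved one way. Of 19 tested genes assigned to the paternal copy, 5 rose and 5 fell, with a median log2 fold change of 0.045. Of 8 tested genes assigned to the maternal copy, TRAPPC9 rose and PPP1R9A fell, with a median of -0.047. For some of them, such as UBE3A and PPP1R9A, that copy is reported only for certain tissues. Which copy is read in PA1 is not known here. The called shares of the paternal and maternal classes were 52.6% and 25%, beside 28.2% of all tested genes. The classes differ in abundance, so these 2 shares cannot be compared directly. At an average log2 CPM of 4 or more, 9 of 12 paternal and 1 of 2 maternal genes were called. The 3 genes whose parental copy depends on the transcript, GNAS, BLCAP and GRB10, were all called. All 3 had an average log2 CPM of 4 or more, where 36.6% of all tested genes were called. NAP1L4, whose imprinting in human tissue is not settled, was not called.

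**Figure D1:**
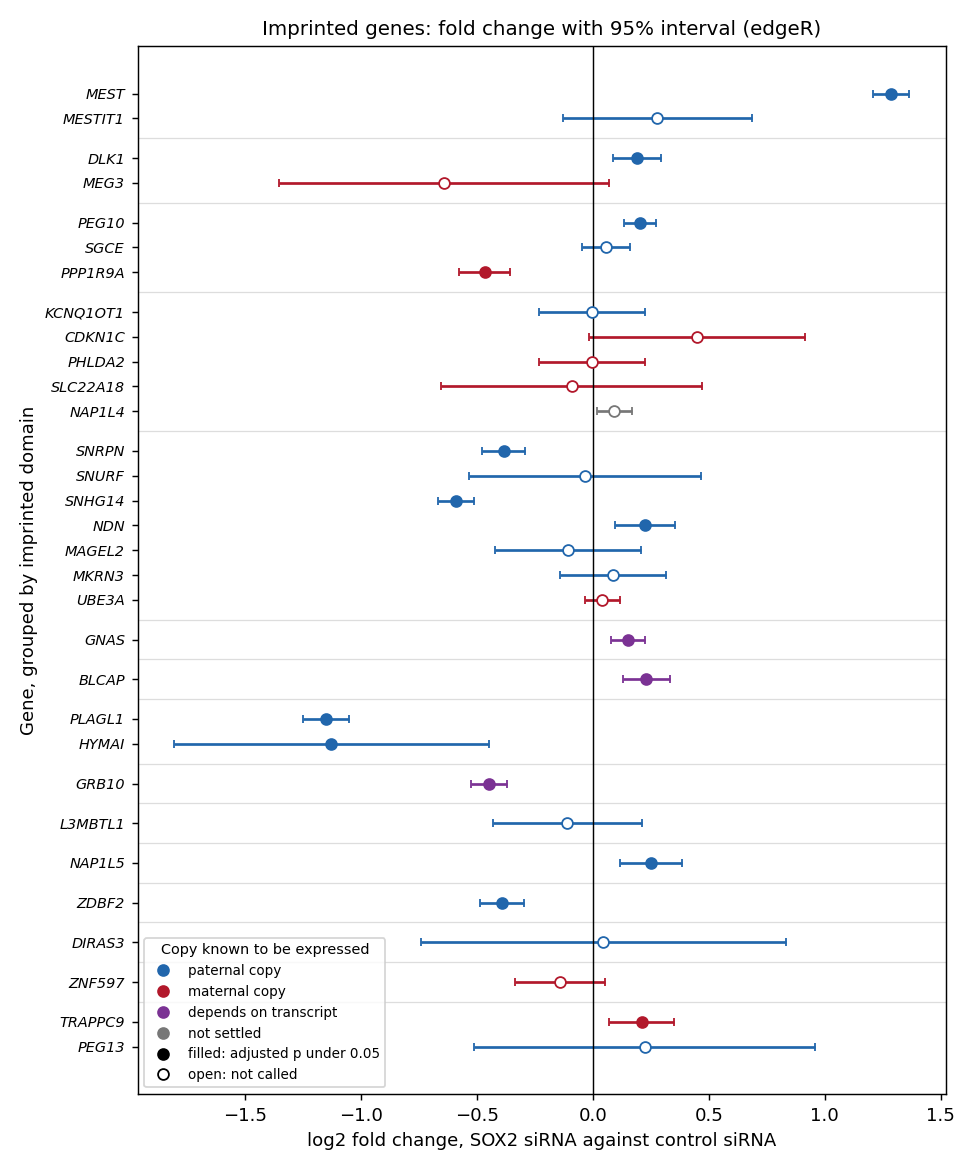
Log2 fold change of the 31 tested imprinted genes, SOX2 siRNA against control siRNA, with 95% intervals from the edgeR fit. Genes are grouped by domain, colours mark the copy assigned as expressed from background knowledge, and filled points passed an adjusted p of 0.05. MEST stands at 1.29 and PLAGL1 at -1.15, while most other genes lie within 0.5 of 0.

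The 3 promoters shown here, of MEST, PLAGL1 and SNRPN, were chosen after the values were seen. Of the 31 tested genes MEST rose most and PLAGL1 fell most. The PLAGL1 window is the one shared with HYMAI and the SNRPN window the one shared with SNURF at the domain's control region. For MEST, which has 5 windows, it is the one richest in CG among those free of annotated exon bases. The sequences are from RefSeq (GRCh38.p14), 5′ to 3′ on the gene's strand, and 23 of the 37 genes had a promoter entry. From the 250 bases before each start, the longest stretch outside annotated exons of the same strand is printed, and capitals mark CG dinucleotides, the sites that carry imprinting methylation. They lie at chr7:130491808-130492057 (plus strand), chr6:144008431-144008509 (minus strand) and chr15:24954737-24954926 (plus strand).
MEST: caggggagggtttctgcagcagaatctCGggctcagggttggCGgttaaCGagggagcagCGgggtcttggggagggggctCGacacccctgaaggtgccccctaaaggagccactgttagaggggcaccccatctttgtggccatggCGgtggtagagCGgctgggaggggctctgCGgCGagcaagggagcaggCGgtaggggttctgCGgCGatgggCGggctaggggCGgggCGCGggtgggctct
PLAGL1: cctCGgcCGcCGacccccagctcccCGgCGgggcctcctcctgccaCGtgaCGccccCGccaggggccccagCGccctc
SNRPN: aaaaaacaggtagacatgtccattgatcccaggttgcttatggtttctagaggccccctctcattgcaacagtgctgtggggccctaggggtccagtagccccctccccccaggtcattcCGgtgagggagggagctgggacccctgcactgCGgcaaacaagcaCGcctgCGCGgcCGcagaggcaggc

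The full 250 bases held 16 CG dinucleotides for MEST, 32 for PLAGL1 and 12 for SNRPN, where the median over 35116 promoter windows of that length was 11; the MEST window had been picked for its CG number. The hexamer TGCCGC, which the imprint keeper ZFP57 binds when methylated, was searched on both strands, where its reverse complement is GCGGCA. It occurred 2 times before the PLAGL1 start and 2 times before the SNRPN start, and was not in the MEST window, where 12.7% of all windows held it. That share was not matched for CG number, and the hexamer itself holds a CG. Of the 23 imprinted genes with a promoter entry, 14 held the hexamer in at least 1 window. The letters CATTGT, 1 form of the core that SOX proteins bind, were searched with their reverse complement ACAATG. They were in none of the 3 windows and in 9.29% of all. Other forms of the core were not searched, so their absence is not shown. The PLAGL1 matches and 1 of the SNRPN matches lie outside the printed bases. Other starts of the same genes differed. The hexamer was in 1 of the 5 MEST, 1 of the 5 PLAGL1 and 2 of the 4 SNRPN windows. The difference between MEST and PLAGL1 thus depends on the window shown. CATTGT or its reverse complement was in 1 MEST window, 1 SNRPN window and no PLAGL1 window. These are matches of letters and not binding sites, and the windows are short.

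MEST, an enzyme-like membrane protein gene of the paternal copy that is abundant in embryonic mesoderm, rose most of the 31 tested genes. It spans chr7:130486171-130506465 in GENCODE 29 (GRCh38). MEST was at 91.3, 88.7 and 92.5 CPM in control replicates 1 to 3 and at 219, 220 and 226 CPM in SOX2 siRNA replicates 1 to 3. The groups lay far apart, with little spread within either. The log2 fold change was 1.29 (SE 0.0366; edgeR adjusted p = 3.76e-14), a 2.44-fold rise. Its antisense transcript MESTIT1, also paternal, averaged 1.56 ± 0.185 CPM in the controls and 1.89 ± 0.207 CPM after SOX2 siRNA (SD, n = 3). The MESTIT1 groups overlapped and the gene was not called (log2 fold change 0.28, 95% interval -0.13 to 0.68). Exons of the pair overlap by 484 bases on opposite strands, and no source used here says if strand entered the counting.

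PLAGL1, a zinc finger transcription factor of the paternal copy that restrains cell growth and acts on other imprinted genes, fell most of the 31 tested genes. It spans chr6:143940300-144064599 (GENCODE 29, GRCh38). PLAGL1 had 3299, 2774 and 2883 counts in control and 1418, 1484 and 1404 in SOX2 siRNA libraries. Means were 103 ± 6.28 and 46.6 ± 0.628 CPM (SD, n = 3). All 3 SOX2 siRNA libraries were below every control library, at 45.1% of the control mean. The log2 fold change was -1.15 (SE 0.0472; edgeR adjusted p = 5.71e-12). HYMAI, the non-coding RNA that starts at the same imprinted promoter, was near the limit of detection, with 32, 30 and 32 counts in control and 17, 22 and 7 in SOX2 siRNA libraries. HYMAI fell by 1.13 on the log2 scale (SE 0.320; edgeR adjusted p = 0.0137). That call was lost without control replicate 2 (adjusted p = 0.0665), control replicate 3 (0.0501) or SOX2 siRNA replicate 3 (0.0576). HYMAI shares 289 exon bases with PLAGL1 on the same strand, so their counts are not fully separate.

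**Figure D2:**
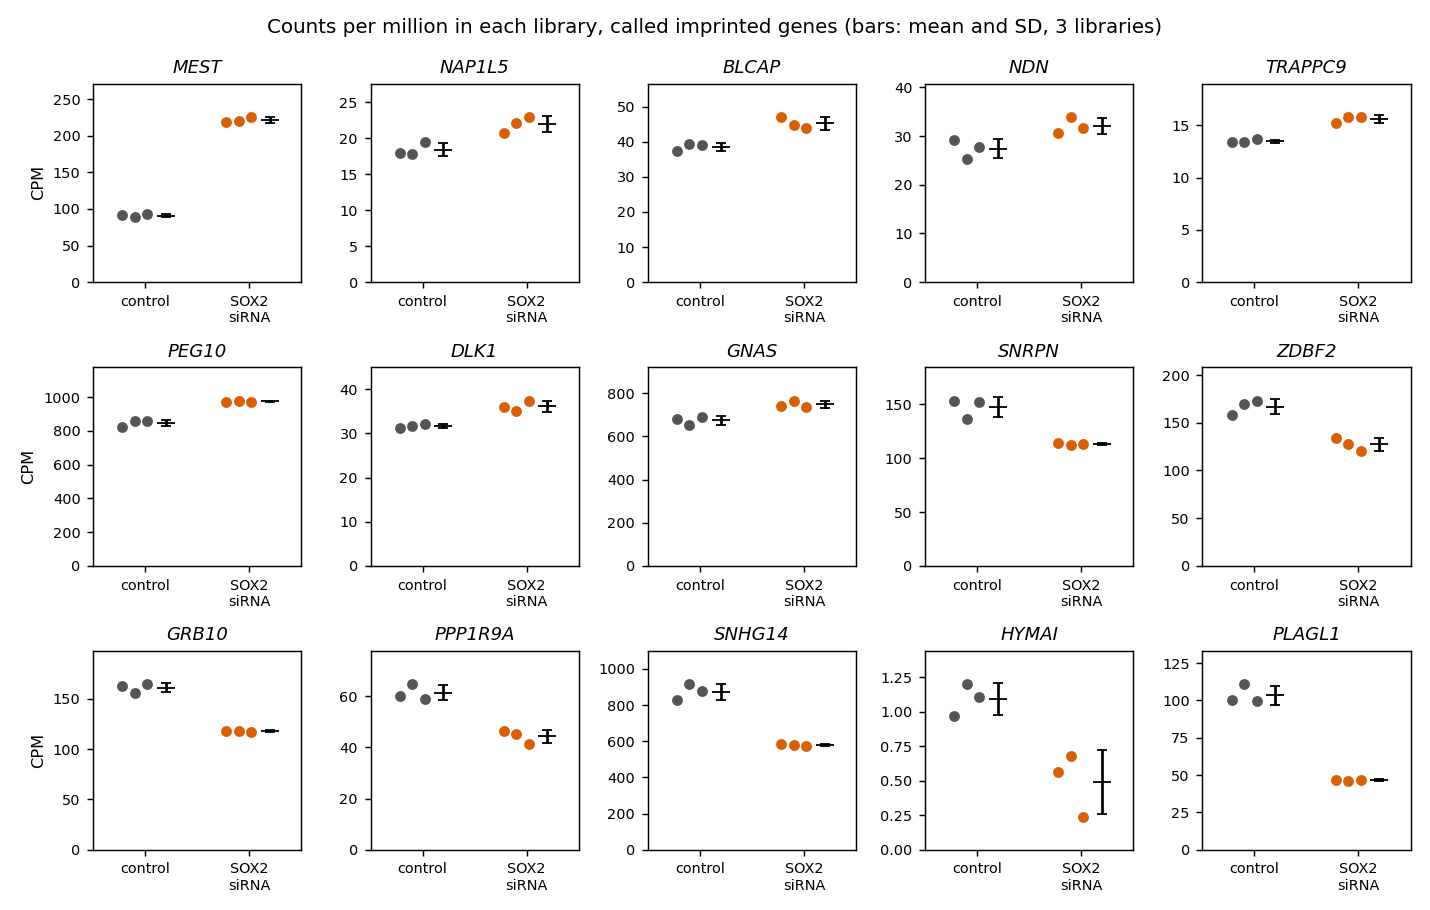
CPM in each library for the 15 called imprinted genes, ordered from the largest rise to the largest fall, with each vertical axis starting at 0. Points are libraries, bars give mean and SD of 3. The groups do not overlap in any panel, with means of 90.8 and 221 CPM for MEST and of 103 and 46.6 CPM for PLAGL1. The genes shown were called on these same libraries, and groups did not overlap for 41.8% of all tested genes.

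In the SNRPN to UBE3A domain, which is deleted or switched off in Prader-Willi and Angelman syndromes, SNHG14 and SNRPN fell, NDN rose, and the other 4 genes were not called. SNHG14, the long paternal host transcript of snoRNAs that runs antisense into UBE3A, was at 829, 915 and 876 CPM in control and at 588, 580 and 573 CPM in SOX2 siRNA libraries. Every SOX2 siRNA library was lower, with a log2 fold change of -0.59 (SE 0.0375; edgeR adjusted p = 2.05e-09). SNRPN, which encodes a protein of the splicing machinery, was at 154, 137 and 153 CPM in control and at 114, 112 and 113 CPM in SOX2 siRNA libraries. SNRPN fell by 0.38 on the log2 scale (SE 0.0439; edgeR adjusted p = 3.14e-06). SNURF, the upstream reading frame of the same transcript, was at 2.06 ± 0.353 and 2.01 ± 0.712 CPM (SD, n = 3) and was not called. It shares 814 of its 1175 exon bases with SNRPN on the same strand, so how reads were divided between them is uncertain.

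NDN, a paternal gene whose MAGE family protein is known from neuronal growth arrest, was at 29.1, 25.3 and 27.8 CPM in control and at 30.7, 34.0 and 31.7 CPM in SOX2 siRNA libraries. NDN rose with a log2 fold change of 0.23 (SE 0.0611; edgeR adjusted p = 0.00991). The call was lost without control replicate 2 (adjusted p = 0.0597) or SOX2 siRNA replicate 2 (0.0779). MAGEL2 and MKRN3, its paternal neighbours, were at 3.27 and 5.77 CPM in control and were not called (log2 fold changes -0.11 and 0.09). UBE3A, the ubiquitin ligase of the maternal copy in neurons, was at 184, 196 and 193 CPM in control and at 194, 199 and 197 CPM in SOX2 siRNA libraries. The groups overlapped and UBE3A was not called (log2 fold change 0.04, 95% interval -0.03 to 0.12). UBE3A and SNHG14 overlap by 198 exon bases on opposite strands.

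In the PEG10 domain the retrotransposon-derived gene and its neighbours did not move alike. PEG10, a paternal gag-pol-like gene required for the placenta, was the most abundant imprinted gene per exon length. It was at 824, 857 and 858 CPM in control and at 971, 980 and 973 CPM in SOX2 siRNA libraries. The groups did not overlap, but the rise was only 1.15-fold (log2 fold change 0.20, SE 0.0325; edgeR adjusted p = 1.28e-04). SGCE, the paternal epsilon-sarcoglycan gene that starts beside PEG10 in the opposite direction, was at 38.5 ± 0.991 and 40.1 ± 1.36 CPM (SD, n = 3) and was not called. PPP1R9A, a neurabin gene reported as maternal in some tissues, was at 60.2, 64.6 and 59.0 CPM in control and at 46.4, 45.1 and 41.4 CPM in SOX2 siRNA libraries. PPP1R9A fell by 0.47 on the log2 scale (SE 0.0517; edgeR adjusted p = 2.29e-06).

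In the DLK1 domain only the paternal protein-coding gene DLK1 was expressed above trace level. DLK1, a Notch-like membrane protein that holds back differentiation, was at 31.2, 31.7 and 32.1 CPM in control and at 36.0, 35.0 and 37.4 CPM in SOX2 siRNA libraries. It rose 1.14-fold, with no overlap of the groups (edgeR adjusted p = 0.00796). The maternal non-coding RNA MEG3 had 18, 11 and 14 counts in control and 11, 9 and 9 in SOX2 siRNA libraries, and it was not called (log2 fold change -0.64, 95% interval -1.35 to 0.07). MEG8, the other maternal RNA, had 1 to 8 counts and the paternal gene RTL1 had 0 to 6, too few to test.

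None of the 5 tested genes in the KCNQ1OT1 domain was called. KCNQ1OT1, the paternal antisense RNA that silences its neighbours, was at 19.1, 21.7 and 18.5 CPM in control and at 22.5, 19.6 and 16.9 CPM in SOX2 siRNA libraries (log2 fold change -0.00297, 95% interval -0.23 to 0.22). CDKN1C, the maternal cell cycle inhibitor p57, was low, with 45, 33 and 53 counts in control and 80, 62 and 48 in SOX2 siRNA libraries. Its groups overlapped, and the interval of its log2 fold change ran from -0.02 to 0.92. PHLDA2, a maternal gene that limits placental growth, was at 5.93 ± 0.518 and 5.94 ± 0.439 CPM (SD, n = 3). SLC22A18, a maternal transporter gene, was at 2.05 ± 0.547 and 1.94 ± 0.686 CPM. NAP1L4, a histone chaperone gene and the most abundant of the domain, was at 181, 176 and 176 CPM in control and at 185, 190 and 194 CPM in SOX2 siRNA libraries. These groups did not overlap, as for 41.8% of all tested genes, and the edgeR adjusted p was 0.0600. NAP1L4 passed the threshold without control replicate 1 (adjusted p = 0.0453) or SOX2 siRNA replicate 1 (0.0410). The channel gene KCNQ1 had 2 to 7 counts and was not tested.

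Of the imprinted genes in smaller domains, GRB10 and ZDBF2 fell. GRB10, an adaptor that dampens insulin and growth factor receptors, was at 162, 156 and 164 CPM in control and at 118, 118 and 117 CPM in SOX2 siRNA libraries. GRB10 fell by 0.45 on the log2 scale (SE 0.0365; edgeR adjusted p = 4.76e-08). ZDBF2, a paternal zinc finger gene, was at 159, 169 and 173 CPM in control and at 134, 128 and 120 CPM in SOX2 siRNA libraries, a fall of 0.39 on the log2 scale (SE 0.0453; edgeR adjusted p = 4.72e-06). In both genes every SOX2 siRNA library was below every control library.

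Small rises were found for GNAS, BLCAP, NAP1L5 and TRAPPC9. GNAS, which encodes the stimulatory G protein alpha subunit and several imprinted transcripts not separated in the table, was at 683, 651 and 690 CPM in control and at 742, 766 and 738 CPM in SOX2 siRNA libraries (log2 fold change 0.15, edgeR adjusted p = 0.00316). BLCAP was at 37.3, 39.4 and 38.9 CPM in control and at 47.1, 44.7 and 43.8 CPM in SOX2 siRNA libraries (log2 fold change 0.23, edgeR adjusted p = 0.00156). NNAT, the paternal gene in a BLCAP intron that is known from developing brain, had 0 or 1 count per library. NAP1L5, a paternal retrogene, was at 18.0, 17.8 and 19.5 CPM in control and at 20.7, 22.1 and 23.0 CPM in SOX2 siRNA libraries (log2 fold change 0.25, edgeR adjusted p = 0.00687). TRAPPC9, a vesicle trafficking gene, was at 13.5, 13.4 and 13.7 CPM in control and at 15.2, 15.8 and 15.8 CPM in SOX2 siRNA libraries (log2 fold change 0.21, edgeR adjusted p = 0.0236). The TRAPPC9 call was lost in 5 of the 6 fits that left out 1 library, with adjusted p-values from 0.0529 to 0.0970, and held without SOX2 siRNA replicate 1. DESeq2's Wald test did not call it either (adjusted p = 0.123).

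The other single imprinted genes were not called or were near absent. L3MBTL1, a paternal gene for a chromatin reader, was at 30.3, 29.1 and 25.6 CPM in control and at 29.9, 27.2 and 21.6 CPM in SOX2 siRNA libraries. ZNF597, a maternal zinc finger gene, was at 9.54, 8.38 and 9.17 CPM in control and at 8.65, 8.54 and 7.43 CPM in SOX2 siRNA libraries. The groups of both genes overlapped. DIRAS3, a paternal RAS-like growth suppressor gene, had 16, 6 and 13 counts in control and 16, 13 and 9 in SOX2 siRNA libraries. PEG13, the paternal non-coding RNA in a TRAPPC9 intron, had 12, 16 and 11 counts in control and 20, 18 and 11 in SOX2 siRNA libraries. PEG3, a paternal zinc finger gene, had 1 count in SOX2 siRNA replicate 2 and 0 elsewhere. ZIM2, which shares exons with PEG3, had 0 counts in all 6 libraries, which allows up to 0.0909 to 0.120 CPM.

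Levels between genes were compared as CPM divided by the exon length in kilobases. In control libraries PEG10 led at 127 ± 2.93, followed by GNAS at 50.6 ± 1.57 and SNRPN at 43.2 ± 2.77 (SD, n = 3). NAP1L4 stood at 34.2, SNHG14 at 20.2 and MEST at 18.9 on this scale. After SOX2 siRNA the level of MEST was 46.2 ± 0.830 and that of SNRPN 33.1 ± 0.288, so that MEST stood above SNRPN, the reverse of the control order. A level of at least 1 on this scale was reached by 22 of the 37 genes in control libraries. KCNQ1OT1, an unspliced RNA of 91667 bases, averaged 19.8 CPM but only 0.216 CPM per kilobase. These lengths sum all annotated exons of a gene. With the longest transcript as length GNAS stood at 167, above PEG10, SNHG14 at 66.8 and MEST at 36.3.

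**Figure D3:**
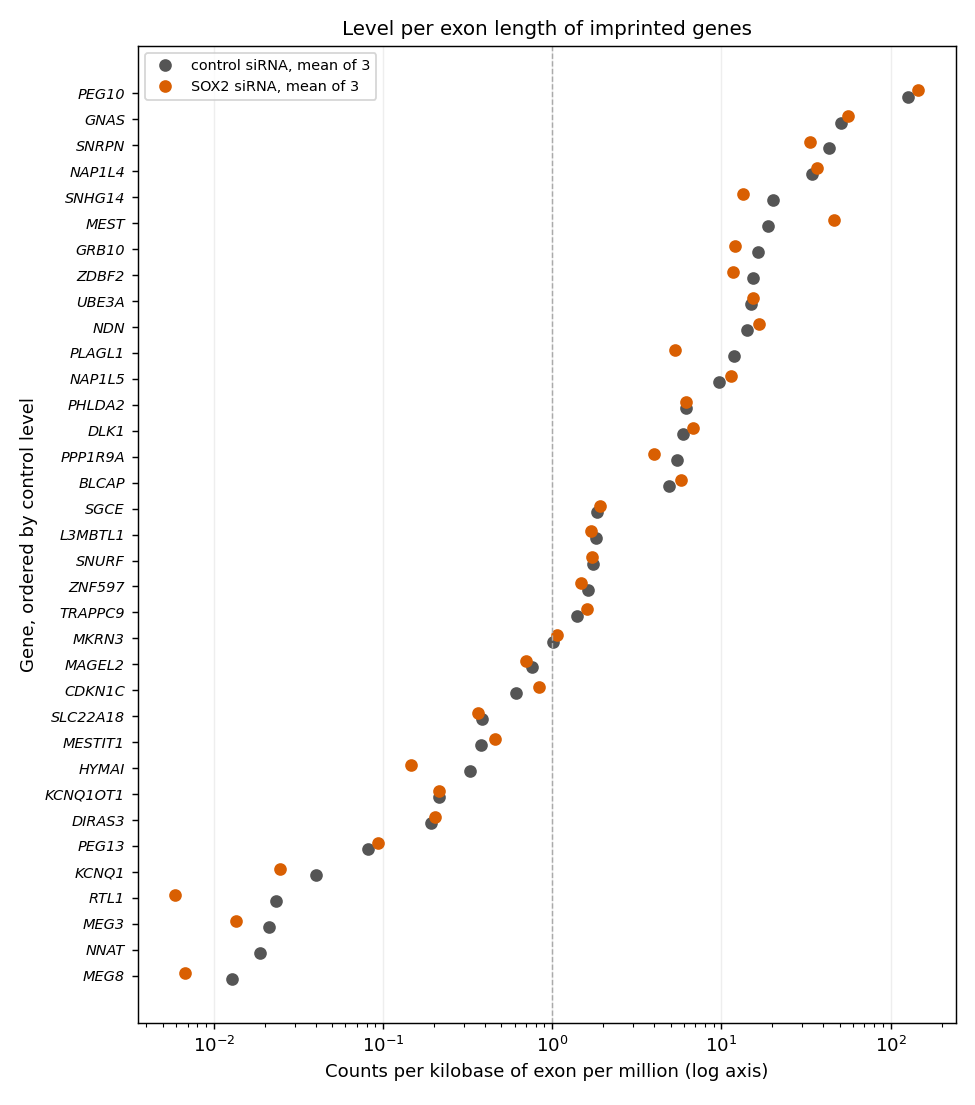
Mean CPM per kilobase of exon for 35 imprinted genes with a count in control libraries, on a log axis, ordered by control level. The dashed line marks 1. Control levels span from about 0.013 for MEG8 to 127 for PEG10, with MEST going from 18.9 to 46.2 and PLAGL1 from 11.8 to 5.34. NNAT has no SOX2 siRNA point because it had 0 counts there.

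Ratios of 2 genes of 1 domain within a library do not depend on how libraries are scaled. Of 10 pairs, 6 had at least 10 counts for both genes in every library. The log2 ratio of MEST to MESTIT1 averaged 5.81 ± 0.173 in the controls and 6.83 ± 0.151 after SOX2 siRNA (SD, n = 3), a difference of 1.02. The log2 ratio of UBE3A to SNHG14 rose from -2.19 ± 0.0269 to -1.56 ± 0.0345, and that of NDN to SNRPN from -2.43 ± 0.0289 to -1.82 ± 0.0879. The ratio of PEG10 to SGCE moved by 0.15. In these 4 pairs the groups did not overlap (exact two-sided permutation p = 0.1, the smallest that 3 against 3 libraries allow; 0.15 after Benjamini-Hochberg adjustment over the 6 pairs). The ratios of CDKN1C to KCNQ1OT1 and of PHLDA2 to CDKN1C overlapped between groups (exact permutation p = 0.3 and 0.2). Each of the 4 pairs without overlap holds a gene called above on these same libraries, and the 2 overlapping pairs hold none. The ratios are thus not separate support for those calls. For single genes, groups did not overlap for 41.8% of all tested genes.

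**Figure D4:**
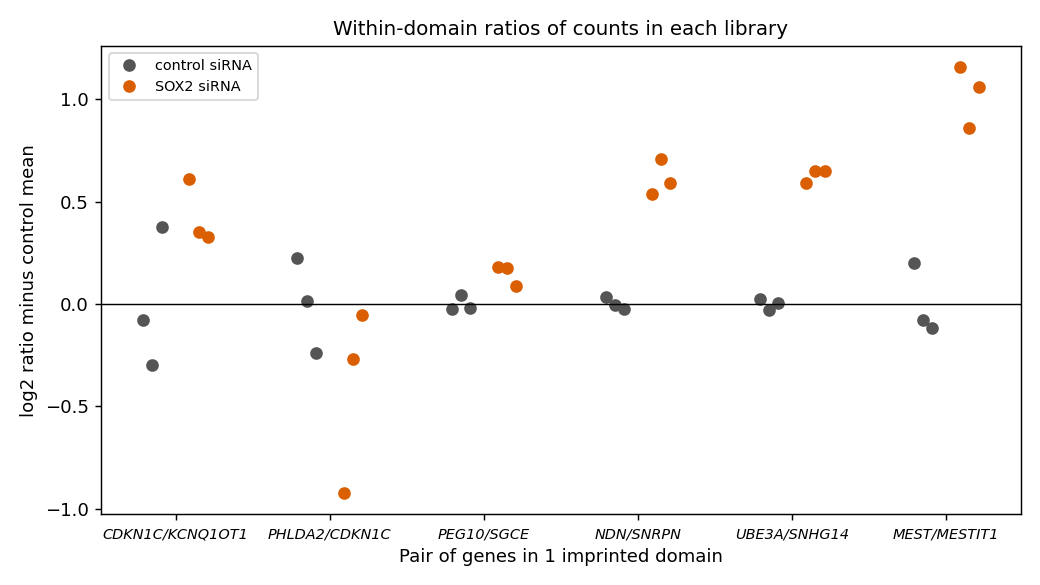
Log2 ratio of counts of 2 genes in 1 imprinted domain, each library minus the mean of the control libraries, for the 6 pairs with enough counts. The SOX2 siRNA libraries lie above all control libraries for PEG10/SGCE, NDN/SNRPN, UBE3A/SNHG14 and MEST/MESTIT1, and overlap them for the other pairs.

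Further genes reported as imprinted in some tissue or species were taken from a list of 61, of which 56 were in the table and 30 were tested. Of these 3 rose, beside 14.8% of all tested genes, and 9 fell, beside 13.4%, with a median log2 fold change of -0.082. At an average log2 CPM of 4 or more, 3 of 12 were called (25%), beside 36.6% of all tested genes. NTM, a neural adhesion gene, rose from 2.13 ± 0.116 to 7.25 ± 0.105 CPM (SD, n = 3), and LRRTM1, a synaptic adhesion gene, from 3.88 ± 0.317 to 10.5 ± 0.448 CPM. ERAP2, a peptidase of antigen processing, stood at 13.1 ± 0.637 CPM in the controls and fell by 1.13 on the log2 scale (SE 0.0914). DLX5 and TFPI2, which lie on the same chromosome arm as PEG10, fell with log2 fold changes of -0.91 and -0.82. The largest edgeR adjusted p among these 5 was 7.20e-06, for TFPI2.

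Of 39 factors that set, keep or erase imprints, 29 were tested, 7 rose and 4 fell, with a median log2 fold change of 0.023. Among those with an average log2 CPM of 4 or more, 11 of 28 (39.3%) were called, close to the 36.6% of all tested genes at that level. DNMT3B, a DNA methyltransferase of early embryos, averaged 99.7 ± 4.27 CPM in the controls and 132 ± 2.41 CPM after SOX2 siRNA (SD, n = 3) and rose (edgeR adjusted p = 5.79e-07). UHRF1, which brings the maintenance methyltransferase to newly made DNA, rose from 226 ± 4.76 to 266 ± 13.8 CPM. HELLS, a chromatin remodeller, fell from 184 ± 11.5 to 156 ± 2.37 CPM. CBX1 and CBX5, heterochromatin proteins, had log2 fold changes of 0.17 and -0.15. The imprint keepers TRIM28 and ZNF445 and the maintenance enzyme DNMT1 were not called (log2 fold changes 0.02, -0.10 and -0.03). ZFP57 had 6 to 13 counts per library and was not called, and DNMT3L was at 0 counts in all 6 libraries.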

How the data were processed

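The authors deposited 1 table of raw counts per gene symbol, with whole numbers and unequal column totals. Per the submitters' processing notes, bcl2fastq 2.20.0, STAR 2.7.3a, Salmon 0.14.1, DESeq2 1.28.1 and GRCh38.p13 were used, with no roles given. The annotation and the use of strand are not given in the sources used here. Trizol extraction and the KAPA mRNA HyperPrep kit are named per the labels, so RNAs without a poly(A) tail are undercounted. Columns were matched to libraries by description and groups taken from titles.

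The counts were tested with edgeR 4.0.16 (R 4.3.3; limma 3.58.1, DESeq2 1.42.0 as alternatives) after filterByExpr with a minimum count of 10 and TMM scaling. The test was the quasi-likelihood F-test (robust=TRUE), adjusted by Benjamini-Hochberg over every tested gene. Ratios used a pseudocount of 2 counts. Exon lengths and overlaps are from GENCODE 29. Tests were computed with Python 3.11.15. On simulated data with 200 genes changed, the fit recovered 68% of 1.25-fold, 80% of 1.5-fold, 96% of 2-fold and all 50 of the 4-fold changes over 17291 genes, and 4.97% of its calls were false. The simulation set every dispersion on the fitted trend and changed no genes of the lowest counts. It also changed far fewer genes than the 4964 called in the data. These shares therefore need not hold for the real calls or for genes with few counts.

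The 37 genes, the lists and the markers were chosen with earlier results of these data known. All 37 genes are accounted for. Values in each library are given for called genes with a log2 fold change of at least 0.5 in size and for the most abundant gene of each domain. Further genes shown by library, and the genes named from the marker lists, were chosen after their values were seen. So were TRIM28, ZNF445, DNMT1, ZFP57 and DNMT3L. Of the other lists, up to 5 called genes by smallest p are named. Alternatives were other scalings and filters, DESeq2's Wald test, limma-voom, a replicate block and each library left out. Intervals of fold changes come from the edgeR fit and hold the spread between libraries, while the floor of 3 counts covers counting error only. No library was left out of the main results.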

Additional observations from a re-analysis of the deposited data

How the results depend on the processing

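The number of called imprinted genes was 15 and ranged from 12 to 16 over the 14 alternatives, with the lowest value without control replicate 2. MEST, PLAGL1, SNHG14, SNRPN, GRB10, ZDBF2, PPP1R9A, PEG10, BLCAP, GNAS, NAP1L5 and DLK1 were called under each of their alternatives and in all 6 fits that left out 1 library. MEST ranged from 1.26 to 1.30 and PLAGL1 from -1.17 to -1.10 on the log2 scale. HYMAI, NDN and TRAPPC9 each lost the call in some fits without 1 library, and TRAPPC9 also under DESeq2's Wald test. HYMAI fell below the filter of 10 counts in every library, so it has no value there. A fit with replicate block called 16 imprinted genes, NAP1L4 being the added one (adjusted p = 0.0475). Same-numbered libraries did not deviate together, with correlations of 0.0868, -0.0377 and -0.0311, so the numbers were not taken as pairs. In a block the mean log2 ratio differences, for example 1.02 for MEST to MESTIT1, are the same by construction, so the block is no check on them. The lists of other imprinted genes and of regulators gave 9 to 13 and 8 to 11 calls. Over 54 genes and 751 values from other settings, 50 lost the call, 3 gained it and none reversed. These 54 were the 31 tested imprinted genes and those genes of the lists of other imprinted genes and regulators called in the main fit. Gains by uncalled genes of those lists are therefore not in this count. Reversals were counted only where a call was involved, and the uncalled SLC22A18 ranged from -0.40 to 0.16 on the log2 scale. Depth limits MEG3, HYMAI, DIRAS3, PEG13, CDKN1C and the untested genes, whose changes were not detectable unless large. The cause of lost calls was not tested.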

Other observations

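The far end of the DLK1 domain held a signal below the filter on low counts. DIO3OS, a non-coding RNA beside the thyroid hormone deiodinase gene DIO3, had 10, 14 and 13 counts in control and 2, 3 and 1 in SOX2 siRNA libraries. When every gene with at least 1 count was tested, its log2 fold change was -2.65 (edgeR, Benjamini-Hochberg adjusted p = 1.13e-04). DIO3 had 6, 7 and 4 counts in control and 0, 3 and 1 in SOX2 siRNA libraries in the same fit (log2 fold change -2.08, edgeR adjusted p = 0.0655). RTL1 and MEG8 of the same domain were at log2 fold changes of -1.83 and -0.91 there and were not called. DIO3OS and DIO3 were singled out after their values were seen.

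Genes outside the 37 that lie within 250 kb of one of them were counted as well. Several of them, such as COPG2, GPR1 and PWAR5, are also on the list of further genes reported as imprinted. Of 85 such tested genes, 9 rose and 13 fell, a share of 25.9% beside 28.2% of all tested genes. Around MEST none of 6 tested neighbours was called, among them COPG2 at a log2 fold change of -0.06. Around ZDBF2, 4 of 6 tested neighbours fell, and GPR1 was at -1.24. Other domains went otherwise. PLAGL1 itself fell, but 2 of its 5 tested neighbours rose and none fell. In the PEG10 domain 2 of 4 tested neighbours rose, and near PEG3, itself too low to test, 3 of 6 fell. Around SNRPN and UBE3A 2 of 4 tested neighbours fell, AC124312.3 and PWAR5. AC124312.3 shares 1236 exon bases with SNHG14 on the same strand, and PWAR5 lies within the SNHG14 span on that strand. Their falls are therefore not clearly separate from that of SNHG14. PWAR5, a non-coding RNA of that region, averaged 11.3 ± 2.39 CPM in the controls and 7.41 ± 1.29 CPM after SOX2 siRNA (SD, n = 3), with an edgeR adjusted p of 0.0450. The neighbours and domains named were chosen after their values were seen.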
